A study of Mus musculus with 6 samples.

Results

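Nuclear receptors are transcription factors that many small lipid-soluble hormones and metabolites switch on, and coregulators are the proteins they recruit to raise or lower transcription. A set of 34 mouse genes of both kinds was chosen by symbol from a count table of 22032 genes. The clock receptors Nr1d1 and Nr1d2, the NR4A group and the PPARs were left out of this set. The table held 33 of the 34 genes, 26 receptors and 7 coregulators, and Nr0b2 was not analysed here. Their transcripts were measured by bulk RNA sequencing after mRNA isolation of tissue labelled temporomandibular joint, the jaw joint, from mice of 10 weeks. There were 3 libraries of Igf2bp2 knockout mice (Igf2bp2-KO, given as Igf2bp2-/- in the series design) and 3 of wild-type littermates (Igf2bp2-WT). The IGF2BP2 protein binds mRNAs that carry m6A, a methyl mark on adenosine. The labels name no treatment and do not state the deleted exons, the sex or whether animals were pooled. Every library held 199 to 468 counts of the Y chromosome gene Ddx3y and 0 to 4 of Xist, as in male tissue.

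Steroid receptors such as the glucocorticoid receptor wait in the cytoplasm with chaperones and enter the nucleus when hormone binds. Thyroid hormone, retinoic acid, vitamin D and oxysterol receptors mostly sit on DNA as pairs with a retinoid X receptor (RXR), where they hold corepressors until ligand exchanges them for coactivators. In joint tissue, retinoic acid and thyroid hormone are known for their effect on growth cartilage, glucocorticoids and oestrogen for their effect on bone, and glucocorticoids also for muscle wasting.

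Libraries held 28551236 to 35094127 counts, of which 85.3% to 86.0% in KO and 90.6% to 90.8% in WT were mitochondrial. KO libraries kept 10 to 14 counts of Igf2bp2 and WT libraries had 20 to 38, a log2 fold change of -1.80 (edgeR FDR 0.00589), and whether those reads come from a deleted exon is not known. KO 1 and KO 3, and likewise WT 2 and WT 3, differed in the median gene by no more than the sampling noise. The variance between them was divided by that expected from counting read pairs, assuming 2 counts per pair. This ratio was 0.941 and 0.964 in the median gene, against 1.31 to 1.63 for the other pairs of a group. Its mean over genes was 1.18 and 1.08, against 2.15 to 2.89. Each close pair was summed and counted as 1 sample, so n = 2 samples per group. Leaving out KO 2 or WT 1 then leaves 1 sample in that group, and a call lost there can follow from having fewer samples. The labels do not name separate animals, so the p-values rest on a spread that may be technical. Levels are CPM, counts relative to library size, with TMM (trimmed mean) factors that set the typical gene equal between groups. The median tested gene then lay at -0.01 on the log2 scale. On library totals with the mitochondrial counts it lay at 0.54 in KO against WT, so every change below is relative to the typical nuclear gene. The cartilage markers in the table (7 of 8 listed) summed to 10.1 to 12.2 CPM in KO and 12.6 to 15.3 CPM in WT, while 15 fast muscle genes summed to 8003 to 9321 CPM in KO and 5234 to 7241 CPM in WT. In such bulk tissue, fewer cells of a type and less RNA per cell cannot be told apart.

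Of the 30 members with enough counts to test, 7 differed between KO and WT, 6 lower and 1 higher in KO (edgeR quasi-likelihood test, FDR 0.05). That is 23.3% of the members tested, against 17.6% of all 14632 genes tested (9.15% higher and 8.48% lower). The 6 lower members were all receptors: Thra, Nr3c1, Rarg, Rxra, Nr2f1 and Esr1. The 1 higher member, Nrip1, was a corepressor. The median log2 fold change was -0.13 over 23 receptors, 0.03 over 7 coregulators and -0.01 over all genes tested. KO and WT libraries were fully separated in 7 tested members, 2 higher and 5 lower, where 38.4% of all genes tested were separated, 19.2% higher and 19.1% lower. These were the members called other than Esr1, and Nr1h3, which was not called. The count of members called fell to 3 in the DESeq2 Wald test, namely Thra, Nr3c1 and Rarg. It fell to 5 without KO 1 or without WT 2, where Rxra and Esr1 were lost. No count is given without KO 2 or without WT 1, which left 1 sample in that group. Rorb, Esrrb and Pgr did not pass the filter on low counts, and no library held over 7, 9 and 4 counts of them.

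**Figure D1:**
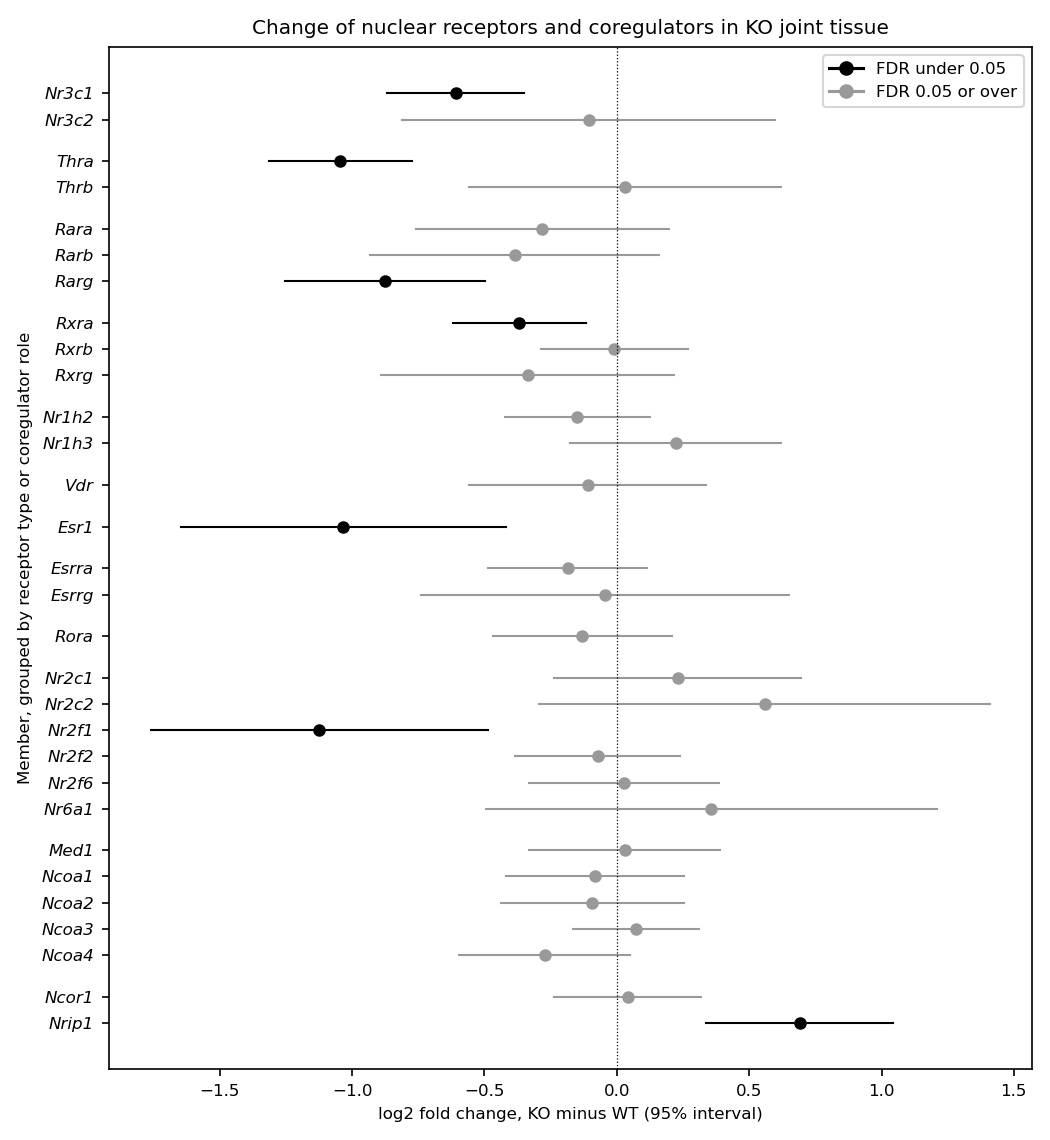
Log2 fold change (KO minus WT) of the 30 members tested, with 95% intervals, grouped by receptor type or coregulator role. Black marks members with FDR under 0.05, of which the 6 lower ones were receptors and the 1 higher one was Nrip1.

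The receptors spanned a wide range of levels. CPM per kb divides CPM by the length of a gene's longest transcript. Per kb of the longest annotated transcript, Thra was the most abundant member in both groups, at 5.45 CPM per kb in KO and 11.2 CPM per kb in WT. Nr1h2 followed closely in KO (5.43 CPM per kb) and at a distance in WT (6.04 CPM per kb), and in KO the levels of Thra and Nr1h2 lay within their spread. Rarg, Esrra and Rxrb came next in both groups, at 3.25, 3.14 and 2.96 CPM per kb in KO and 5.96, 3.60 and 2.98 CPM per kb in WT. Ncoa3, a coactivator of the p160 family, was the highest coregulator, with 1.96 CPM per kb in KO and 1.86 CPM per kb in WT. The lowest members were Pgr, Rorb and Esrrb, at 0.0106, 0.0173 and 0.0249 CPM per kb in KO and 0.00797, 0.00813 and 0.0248 CPM per kb in WT. Within families 1 gene often dominated per kb: Thra made up 96.1% to 96.6% of Thra plus Thrb in KO libraries and 98.1% to 98.5% in WT libraries, and Esrra 93.7% to 95.2% of its family in KO and 93.2% to 95.9% in WT.

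**Figure D2:**
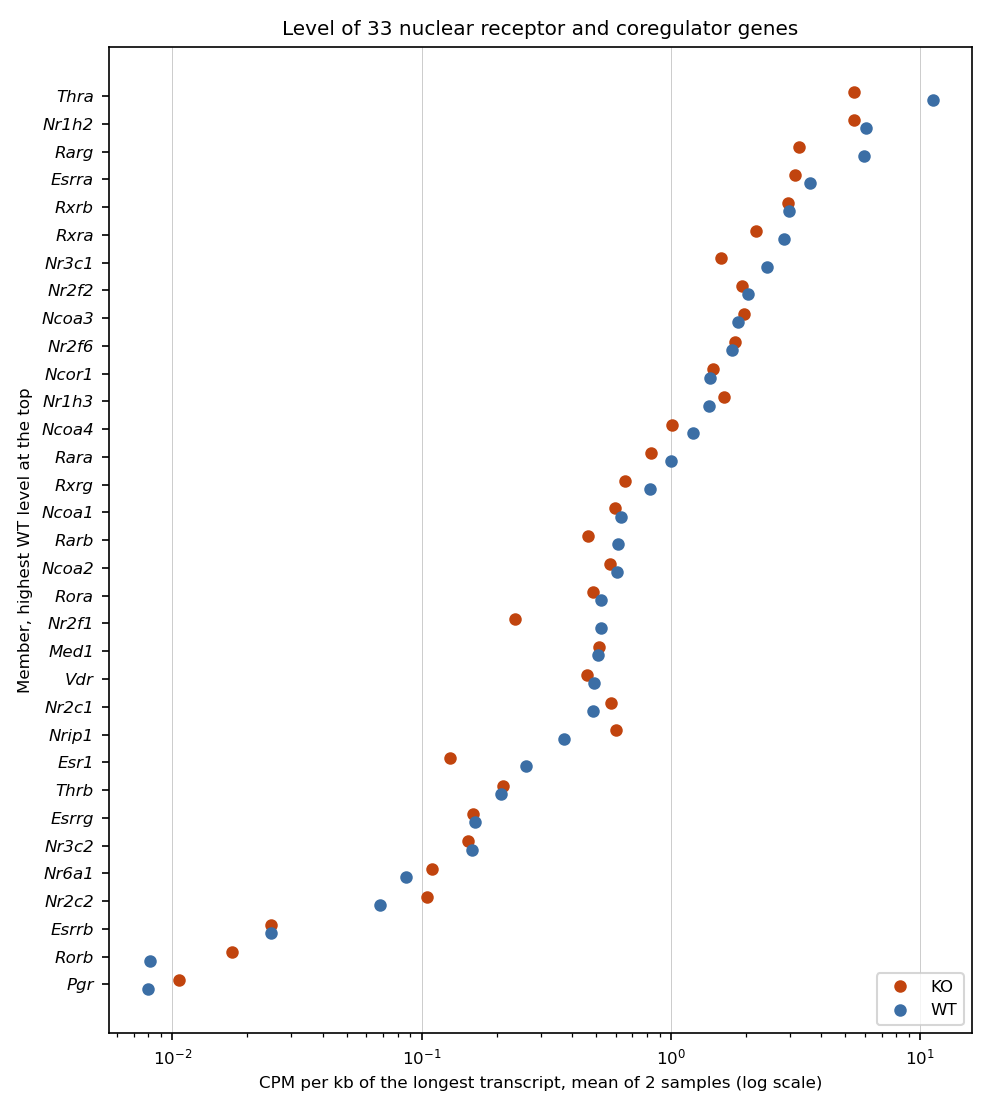
Level of each member in CPM per kb of its longest transcript on a log scale, as the mean of 2 samples in KO (orange) and WT (blue). Thra is highest in both groups, and of the members called, KO points lie left of WT points for Thra, Rarg, Rxra, Nr3c1, Nr2f1 and Esr1 and right for Nrip1.

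Nr3c1, the glucocorticoid receptor, was lower in KO. Its level was 9.22, 10.8 and 9.96 CPM in KO 1 to 3 and 14.8, 15.2 and 17.0 CPM in WT 1 to 3. All KO libraries lay below all WT libraries. The difference was -0.61 on the log2 scale, or 1.53-fold lower (SE 0.12, edgeR FDR 0.00288). On library totals it was -0.06 (FDR 0.730), since the 1209 counts over KO and 1221 over WT were nearly equal while the typical gene had more counts in KO. Nr3c2, the mineralocorticoid receptor, was at 0.531 to 1.13 CPM in KO and 0.741 to 1.48 CPM in WT, with a log2 difference of -0.11 (95% interval -0.81 to 0.60, edgeR FDR 0.873).

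Genes known to be induced through the glucocorticoid receptor were mostly higher in KO. Of 20 such genes, 17 were higher in KO and 1 lower, where 9.15% and 8.48% of all genes tested were higher and lower, and the median log2 fold change was 1.22. This list, like the other gene lists here, was written with earlier results of these data known. Its share is therefore a description and not a test. Fkbp5, a chaperone that dampens the receptor, had 58.4 ± 0.422 CPM in KO libraries, against 8.66 ± 1.06 CPM in WT libraries (SD, n = 2). Zbtb16, a transcriptional repressor, was 6.56-fold higher. Pdk4, which restrains glucose oxidation, was 10.0-fold higher, and Trim63, a ubiquitin ligase of muscle wasting, 7.96-fold higher. Tsc22d3, the anti-inflammatory factor GILZ, was 1.40-fold higher (edgeR FDR 0.0120), while Per1 differed by 0.01 (95% interval -0.23 to 0.25). Errfi1 was 1.34-fold lower, a call lost where 1 sample was left in a group, without KO 2 or without WT 1. These 3 were named after their values were seen. Pdk4 and Trim63 are also muscle genes, and 7 of 15 fast muscle markers were higher in the same libraries, whose part in the result was not tested. Of 12 chaperone genes of the receptor complex 4 were lower: Dnaja1, Bag1, Hsp90aa1 and St13, by 0.55, 0.39, 0.38 and 0.34 on the log2 scale. Without KO 2, which left 1 KO sample, these 4 were at -0.49, -0.37, -0.38 and -0.35 in the same order. Without WT 2 the call of Dnaja1 alone among the 4 held, and on library totals all 4 were above 0 (0.00206 to 0.206). Bag1, Hsp90aa1 and St13 were also not called in the DESeq2 Wald test (FDR 0.0797, 0.0991 and 0.206). The call of Hsp90aa1 was lost without KO 3 (edgeR FDR 0.0564). That of St13 was lost without KO 1, KO 3 or WT 3 (edgeR FDR 0.0511, 0.0556 and 0.0504). It was also lost with mitochondrial genes left out (0.0536) and with no filter (0.0646).

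Thra, which encodes the main thyroid hormone receptor of bone and muscle, was the member of smallest p. It had 11.8, 14.2 and 12.9 CPM in KO 1 to 3 and 29.6, 23.0 and 27.1 CPM in WT 1 to 3. All KO libraries lay well below the lowest WT library. The fall was 1.04 on the log2 scale, or 2.06-fold (SE 0.12, edgeR FDR 5.68e-05), and on library totals it was -0.50 (FDR 0.00755). The call held under each alternative that kept 2 or more samples per group. In the reference annotation Thra shares 263 of its 4614 exon bases with Nr1d1, a clock receptor on the opposite strand that had 240 counts over the KO libraries and 1219 over WT. Reads from those shared bases cannot be told apart without the strand setting. Thrb, the second receptor gene, differed by 0.03 (95% interval -0.56 to 0.62) at 1.14 to 1.45 CPM in KO and 0.916 to 1.46 CPM in WT.

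Of 12 thyroid hormone target genes 6 were higher in KO and 1 lower, where 9.15% and 8.48% of all genes tested were higher and lower. Ucp3, an uncoupling protein of muscle mitochondria, was 8.93-fold higher, Thrsp, a lipogenic factor, 2.06-fold higher, and Hr, a corepressor of the thyroid hormone receptor, 2.40-fold higher. Fasn, fatty acid synthase, was 1.95-fold lower. Dio2, which activates thyroid hormone inside cells, is counted with the ligand enzymes and was 2.72-fold lower (edgeR FDR 0.00359). It was named after its values were seen. Ucp3 is mainly a muscle gene, and the fast muscle values above apply here as well. Of the 6 higher genes, Atp2a1 is itself one of the 15 fast muscle genes, and Klf9 is also on the glucocorticoid list. Both were named after their values were seen.

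**Figure D3:**
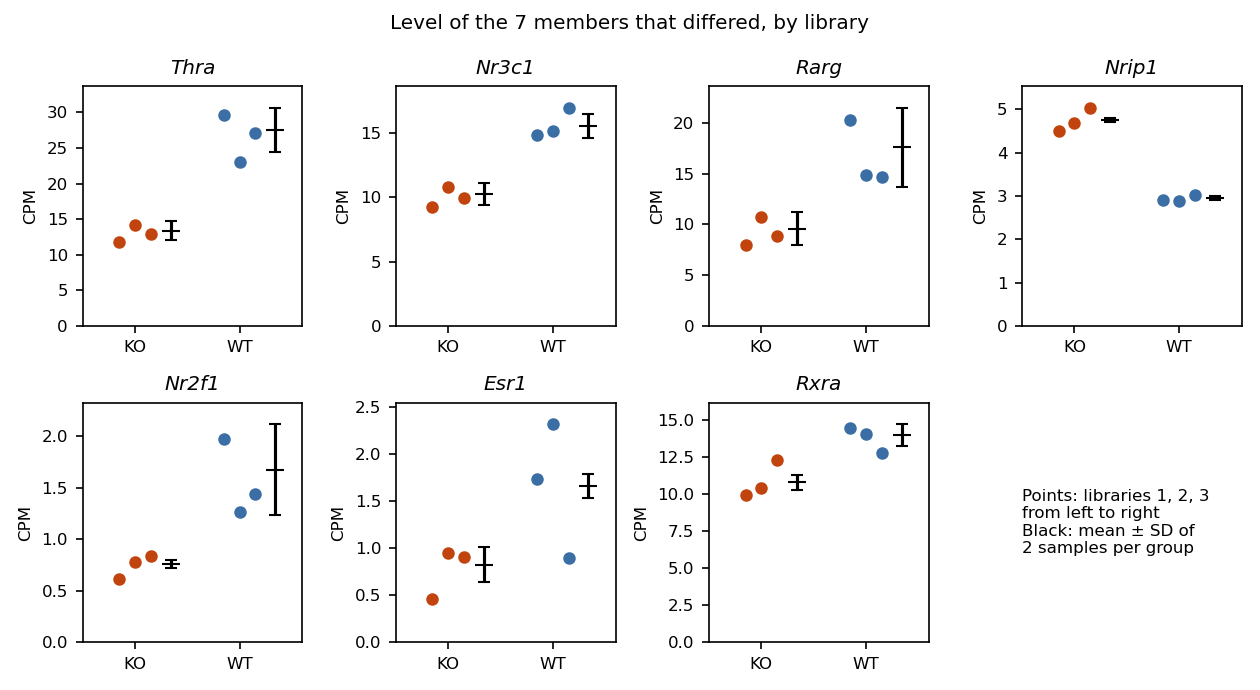
CPM of the 7 members that differed, by library (points, libraries 1 to 3 from left to right), with the mean and SD of the 2 samples per group in black. KO is left of WT; the groups overlap for Esr1, where WT 3 lies below KO 2 and KO 3.

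Of the retinoid receptors, 1 of 3 retinoic acid receptors and 1 of 3 RXRs were lower in KO. Rarg, the retinoic acid receptor prominent in cartilage and skin, had 7.97, 10.7 and 8.87 CPM in KO 1 to 3 and 20.3, 14.9 and 14.7 CPM in WT 1 to 3. The groups were apart, and WT 1 was the highest library. The fall was 0.88 on the log2 scale, or 1.83-fold (SE 0.17, edgeR FDR 0.00526), and on library totals -0.34 (FDR 0.141). Rara and Rarb differed by -0.28 and -0.39 (95% intervals -0.76 to 0.20 and -0.93 to 0.16). Summed per kb, the 3 retinoic acid receptors reached 3.80 to 5.12 CPM per kb in KO and 6.25 to 8.67 CPM per kb in WT, and Rarg made up 70.6% to 74.1% of them in KO and 76.0% to 80.6% in WT.

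Rxra, the RXR that partners most of the other receptors in many tissues, had 9.89, 10.4 and 12.3 CPM in KO 1 to 3 and 14.4, 14.0 and 12.8 CPM in WT 1 to 3. KO 3 and WT 3 lay close together. The fall was 0.37 on the log2 scale, or 1.29-fold (SE 0.12, edgeR FDR 0.0436), while on library totals Rxra was at 0.18 (FDR 0.278). Of the 7 calls it had the largest FDR. Leaving out KO 1 or WT 2 ended the call (edgeR FDR 0.142 and 0.0815). It was also not made in the DESeq2 Wald test (0.210) or with mitochondrial genes left out (0.0521). Without KO 2 or WT 1, which left 1 sample in that group, the change was -0.32 or -0.30. Rxrb, at 6.94, 7.91 and 8.19 CPM in KO 1 to 3 and 7.97, 7.98 and 7.30 CPM in WT 1 to 3, differed by -0.01 (95% interval -0.29 to 0.27). Rxrg, found mainly in muscle and nerve, differed by -0.34 (95% interval -0.89 to 0.22).

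Promoter sequence is shown for the 2 retinoid receptors that fell. Of the 2 listed starts of each, 1 window holds the half-site that these receptors bind, AGGTCA or its reverse complement, and that one is shown. Capitals mark it. The windows are the 250 bases before a RefSeq transcription start on build GRCm38.p6, 5′ to 3′ on the gene's strand, at chr15:102257523-102257772 on the minus strand for the first of 2 listed starts of Rarg and chr2:27709042-27709291 on the plus strand for the second of 2 of Rxra.
Rarg: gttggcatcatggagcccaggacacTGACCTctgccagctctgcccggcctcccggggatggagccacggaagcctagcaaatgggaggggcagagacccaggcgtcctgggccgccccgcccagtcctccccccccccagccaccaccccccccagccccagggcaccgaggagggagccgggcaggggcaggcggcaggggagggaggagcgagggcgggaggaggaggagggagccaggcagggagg
Rxra: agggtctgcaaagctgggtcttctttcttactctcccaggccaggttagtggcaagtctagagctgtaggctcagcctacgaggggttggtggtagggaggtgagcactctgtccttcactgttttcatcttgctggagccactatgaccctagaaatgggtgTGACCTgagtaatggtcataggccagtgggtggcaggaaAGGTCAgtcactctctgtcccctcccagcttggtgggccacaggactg
Searched on both strands, the half-site stood in at least 1 window of 6 of the 29 members with a promoter in the table, or 20.7%, against 15.8% of 27025 genes. The others of these members, Nr6a1, Rxrg, Thrb and Ncoa4, were not called. In the Rarg window it began 225 bases before the start, and the Rxra window held 2 copies. A match of these letters is a description and says nothing of binding in this tissue.

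Genes around retinoic acid differed in both directions. Among 10 tested target genes 2 were higher and 2 lower: Tgm2, a transglutaminase, was 2.64-fold higher and Cyp26b1, which breaks down retinoic acid, 1.69-fold higher, while Rarres2, the chemokine chemerin, was 1.66-fold lower and Hic1, a repressor, 1.69-fold lower. Rarres2 was at -0.72 on the log2 scale without KO 2, which left 1 KO sample. The call of Hic1 was lost without WT 3 (edgeR FDR 0.0675). Of 23 tested genes for ligand synthesis, breakdown and transport, 3 were higher and 4 lower. Aldh1a2 and Aldh1a3, which make retinoic acid, were lower, at 3.10 ± 0.268 and 2.46 ± 0.0916 CPM in KO libraries, against 8.72 ± 0.150 and 5.53 ± 0.640 CPM in WT libraries (SD, n = 2). Aldh1a1, of the same enzyme family and named after its values were seen, was 1.51-fold higher. Cyp27a1, a sterol hydroxylase, was 1.84-fold higher.

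The oxysterol receptors (LXRs), which sense cholesterol derivatives, were not called. Nr1h2 (LXRβ) had 9.35, 11.1 and 11.6 CPM in KO 1 to 3 and 13.1, 11.1 and 10.7 CPM in WT 1 to 3, with overlapping groups and a log2 difference of -0.15 (95% interval -0.42 to 0.12). Nr1h3 (LXRα) had 3.39, 3.10 and 3.29 CPM in KO 1 to 3 and 3.06, 2.27 and 2.76 CPM in WT 1 to 3. Its libraries did not overlap, but the difference of 0.22 was not called (95% interval -0.18 to 0.62, edgeR FDR 0.468). Of 12 tested LXR target genes 2 were higher and 6 lower in KO. Mylip, which marks the LDL receptor for breakdown, was 2.57-fold higher. The desaturase gene Scd2, the phospholipid transfer gene Pltp and the apolipoprotein gene Apoe were 2.20-fold, 2.04-fold and 1.84-fold lower. The cholesterol exporter Abca1, a standard LXR target named after its values were seen, was not called (0.37, FDR 0.0917). In the same libraries 7 of 9 macrophage markers were lower, with sums of 59.3 to 61.6 CPM in KO and 93.2 to 115 CPM in WT, and their part in the result was not tested.

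The vitamin D receptor gene Vdr had 1.88 to 2.04 CPM in KO and 1.90 to 2.66 CPM in WT, with a log2 difference of -0.11 (95% interval -0.56 to 0.34). Of 7 tested target genes 3 were higher and 2 lower, although the median was -0.77. Bglap, the osteocalcin gene, was 3.05-fold higher and Lrp5, a Wnt coreceptor, 2.36-fold higher, while Calb1, a calcium-binding protein, and Spp1, osteopontin, were 1.86-fold and 1.70-fold lower. In the same libraries 3 of 10 osteoblast and osteocyte markers were higher and 1 lower, and Bglap is itself one of them. Their sums were 574.4 to 639.9 CPM in KO and 278.5 to 319.5 CPM in WT. The median log2 fold change of these markers was -0.23, so the higher sum did not hold for the typical marker. Of 4 tested osteoclast markers 3 were lower, with sums of 12.1 to 14.0 CPM in KO and 21.9 to 25.1 CPM in WT, where Ocstamp was at 0. The part of both in the result was not tested.

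Esr1, oestrogen receptor alpha, was called lower at few counts. It had 0.463, 0.948 and 0.910 CPM in KO 1 to 3 and 1.74, 2.31 and 0.893 CPM in WT 1 to 3. The groups overlapped, because WT 3 lay below KO 2 and KO 3. WT 2 and WT 3, which were summed as 1 sample, had 53 and 23 counts of this gene. The change was -1.03 (SE 0.28, edgeR FDR 0.0224) and -0.48 on library totals (FDR 0.183). Leaving out KO 1 or WT 2 ended the call (edgeR FDR 0.0610 and 0.226), and it was not made in the DESeq2 Wald test (0.106). Without KO 2 or WT 1, which left 1 sample in that group, the change was -1.25 or -0.95. Pgr, the progesterone receptor, had 2 to 4 counts in KO libraries and 0 to 2 in WT libraries. Of 9 tested target genes of these receptors, Ccnd1, a cell cycle cyclin, and Igf1, a growth factor, were 2.26-fold and 2.09-fold lower, and the transcriptional regulators Hand2 and Cited2 were 1.74-fold and 1.47-fold higher. The call of Cited2 was lost without WT 2 (edgeR FDR 0.0526). Without KO 2, which left 1 KO sample, Hand2 and Cited2 were at 0.78 and 0.56 on the log2 scale. Cited2 was at 0.47 without WT 1, which left 1 WT sample.

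The oestrogen-related receptors, which drive genes of mitochondrial energy metabolism without a hormone, were not called. Esrra had 9.30, 6.94 and 7.94 CPM in KO 1 to 3 and 9.09, 9.20 and 8.31 CPM in WT 1 to 3, and KO 1 was the highest of all. Its log2 difference was -0.19 (95% interval -0.49 to 0.11) and that of Esrrg -0.05 (-0.74 to 0.65). Esrrb had 2 to 9 counts in KO libraries and 2 to 4 in WT libraries. Of 17 nuclear genes known as targets, 1 was higher and 1 lower. Cpt1b, which brings fatty acids into muscle mitochondria, was 2.02-fold higher. Perm1, a muscle regulator of the same programme, was 1.42-fold lower (edgeR FDR 0.0443). It lost its call without KO 1, WT 2 or WT 3 (edgeR FDR 0.0793, 0.0635 and 0.0568). It was also not called with mitochondrial genes left out (edgeR FDR 0.0501) or in the DESeq2 Wald test (FDR 0.207). Without KO 2 or WT 1, which left 1 sample in that group, the change was -0.63 or -0.51.

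Among the orphan receptors 1 of 6 tested was called. Nr2f1 (COUP-TFI), a factor of neural crest and nerve development, had 0.617, 0.782 and 0.834 CPM in KO 1 to 3 and 1.97, 1.26 and 1.44 CPM in WT 1 to 3. All KO libraries lay below all WT libraries, on 90 counts over KO and 124 over WT. The fall was 1.12 on the log2 scale, or 2.18-fold (SE 0.30, edgeR FDR 0.0177), with -0.58 on library totals (FDR 0.128). The call was lost in the DESeq2 Wald test (0.0682). Without KO 2 or WT 1, which left 1 sample in that group, the change was -1.17 or -0.84. In the same libraries all 9 Schwann cell markers were lower, with sums of 480.9 to 495.3 CPM in KO and 1414 to 1455 CPM in WT, and their part in the result was not tested. An antisense gene shares 123 of the 5093 exon bases of Nr2f1 and had 45 counts over all libraries. Its paralog Nr2f2 (COUP-TFII), of vessels and fibroblasts, had 7.43, 8.74 and 7.58 CPM in KO 1 to 3 and 9.43, 6.89 and 8.39 CPM in WT 1 to 3, with a difference of -0.07 (95% interval -0.38 to 0.24). Nr2f6, Nr2c1, Nr2c2 and Nr6a1 differed by 0.03, 0.23, 0.56 and 0.36, none called (edgeR FDR 0.380 to 0.939). Of the exon bases of Nr2f6, Nr2c2 and Rarb, 54.4%, 30.7% and 34.1% overlap a gene on the other strand, which makes their counts uncertain. Rora, a receptor of muscle and cartilage, had 4.45 to 5.69 CPM in KO and 5.24 to 6.50 CPM in WT, a difference of -0.13 (95% interval -0.47 to 0.21).

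Of the 7 coregulators only Nrip1 was called. NRIP1 (RIP140) binds many liganded receptors and represses genes of energy and fat metabolism. It had 4.50, 4.69 and 5.03 CPM in KO 1 to 3 and 2.89, 2.88 and 3.03 CPM in WT 1 to 3. The libraries of each group lay close together and the groups were apart. The rise was 0.69 on the log2 scale, or 1.61-fold (SE 0.16, edgeR FDR 0.00971), and 1.24 on library totals (FDR 3.07e-05). The DESeq2 Wald test did not make the call (0.0549). Without KO 2, which left 1 KO sample, Nrip1 was at 0.70. Its promoter at the first of 2 listed RefSeq starts, chr16:76373828-76374077 on the minus strand of GRCm38.p6, is shown because it is the only member that rose. These 250 bases hold no AGGTCA on either strand, so no letters are capitalised.
Nrip1: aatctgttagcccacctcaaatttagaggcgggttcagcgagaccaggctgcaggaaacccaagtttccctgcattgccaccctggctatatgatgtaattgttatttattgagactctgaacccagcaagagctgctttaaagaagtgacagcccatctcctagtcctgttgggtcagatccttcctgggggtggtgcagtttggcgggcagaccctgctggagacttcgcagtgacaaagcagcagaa
The other 6 coregulators were not called. The p160 coactivators Ncoa1, Ncoa2 and Ncoa3, which bring histone acetylation to receptors, differed by -0.08, -0.09 and 0.07, and summed per kb they reached 2.95 to 3.19 CPM per kb in KO and 2.98 to 3.12 CPM per kb in WT. Ncor1, the corepressor that carries HDAC3, differed by 0.04 (95% interval -0.24 to 0.32), and Med1, the Mediator subunit that docks receptors, by 0.03 (-0.33 to 0.39). Ncoa4, which also delivers ferritin for breakdown, differed by -0.27 (-0.59 to 0.05, edgeR FDR 0.247). In all, 11 of the 23 uncalled members had intervals that stayed within 0.5 of 0 on the log2 scale. The interval of Nr2c2 reached farthest from 0, to 1.41.

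Coregulator genes outside the members differed in 19.0% (other coactivators), 10.0% (Mediator) and 9.52% (other corepressors) of those tested, against 17.6% of all genes. Of 21 other coactivators 3 were higher and 1 lower: Pnrc1, Ccar1 and the acetyltransferase gene Crebbp were 1.56-fold, 1.34-fold and 1.37-fold higher, and Ppargc1b, a partner of the oestrogen-related receptors, 2.04-fold lower. Ccar1, Crebbp and Ppargc1b were not called in the DESeq2 Wald test (FDR 0.0986, 0.127 and 0.147). Without KO 2, which left 1 KO sample, they were at 0.35, 0.35 and -1.17 on the log2 scale. Ccar1 was also lost without WT 3 (edgeR FDR 0.0524) and Ppargc1b without KO 1, WT 2 or WT 3 (0.0600, 0.0528 and 0.0643). Of 30 Mediator subunits Med12 and Med24 were higher by 0.59 and 0.57 on the log2 scale and Med22 was 1.53-fold lower. Without KO 2 they were at 0.62, 0.41 and -0.56. The call of Med24 was lost without WT 2 or WT 3 (edgeR FDR 0.0632 and 0.0601) and in the DESeq2 Wald test (FDR 0.0975). Of 21 other corepressors Zbtb16 and Hr were higher, which are also on the glucocorticoid and thyroid hormone target lists.

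**Figure D4:**
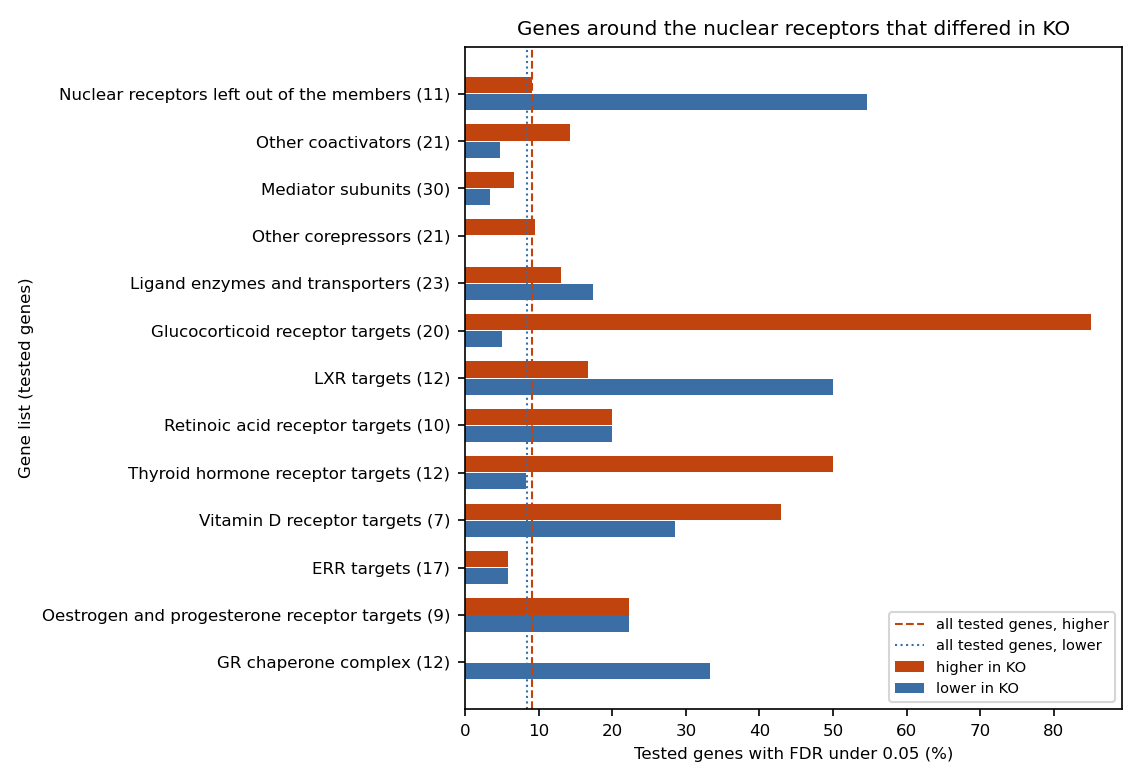
Share of tested genes with FDR under 0.05 in each gene list around the receptors, higher (orange) and lower (blue) in KO, with the shares over all tested genes as lines. The glucocorticoid list has 17 of 20 genes higher, and the coactivator, Mediator, corepressor and oestrogen-related receptor (ERR) lists have at most 3 genes called in either direction.

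**Figure D5:**
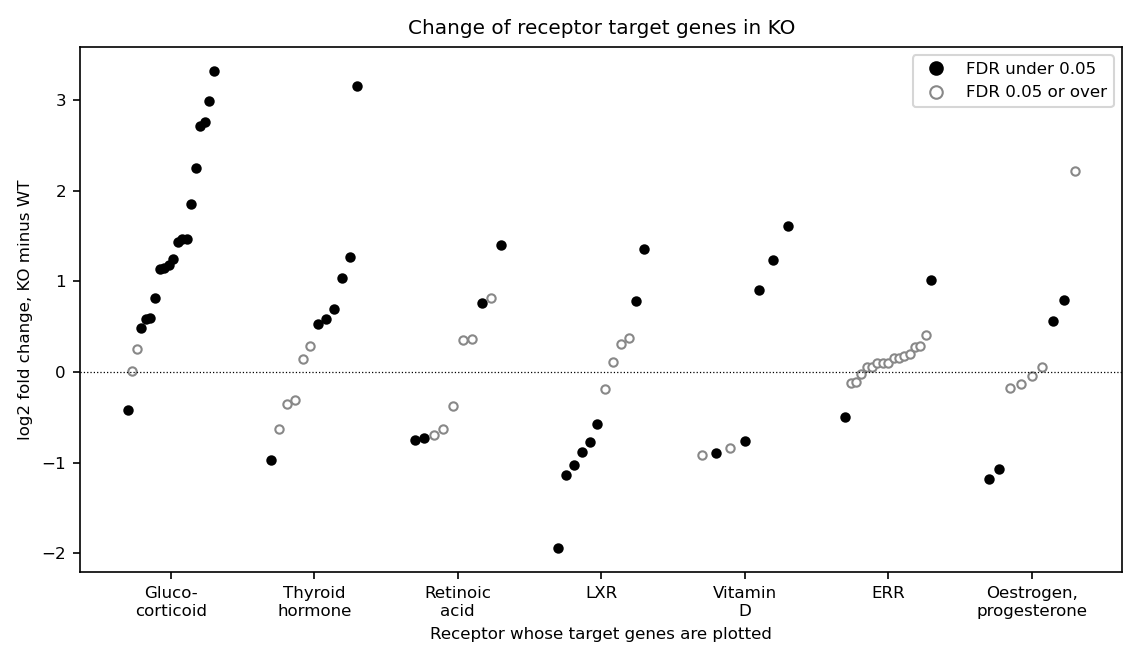
Log2 fold change (KO minus WT) of each tested target gene, by receptor, sorted within each list, with filled points for FDR under 0.05. Points of the glucocorticoid list lie mostly above 0, up to Pdk4, and those of the oestrogen-related receptor (ERR) list lie between Perm1 at -0.50 and Cpt1b at 1.01.

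The receptors left out of the members were lower more often than higher: of 11 tested, 6 were lower and 1 higher, with a median of -0.77. Nr1d1 and Nr1d2, repressors of the clock, were 8.15-fold and 1.59-fold lower, and Nr4a1 and Nr4a2, early response receptors, 2.16-fold and 2.80-fold lower. Without KO 2, which left 1 KO sample, Nr1d2 was at -0.68 on the log2 scale.

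Markers of other tissues also differed between these libraries. Of 11 tested salivary gland markers 10 were higher in KO and 1 lower, with sums of 515.4 to 544.3 CPM in KO and 42.8 to 45.9 CPM in WT. All 12 tested neuron markers were higher, at 44.8 to 52.5 CPM in KO and 6.74 to 9.03 CPM in WT, and 5 of the 14 listed, Dbh, Slc5a7, Chat, Chrna3 and Elavl4, had no count in WT. Of 8 olfactory markers 6 were lower, at 4.24 to 5.29 CPM in KO and 27.5 to 29.5 CPM in WT. Adipocyte markers had 4 of 7 lower and 1 higher, with a median log2 fold change of -1.16. Their summed level was nevertheless 894.5 to 979.8 CPM in KO and 502.9 to 694.0 CPM in WT. Synovial fibroblast markers had 3 of 8 higher and 1 lower, at 226.7 to 246.2 CPM in KO and 246.0 to 265.8 CPM in WT. Endothelial markers had 2 of 7 higher and 2 lower. The part of these shifts in the changes of the receptors was not tested.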

How the data were processed

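Groups and replicate numbers came from the sample titles. Per the submitters' processing notes, HISAT2 2.1.0, StringTie 2.1.5 and build mm39 were used. The authors deposited raw read counts per gene symbol, not normalized. No source used here states the annotation, strandedness or handling of multi-mapped reads.

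Close library pairs (median variance ratio under 1.1, genes with at least 20 counts, 2 counts per read pair) were summed. Genes kept by filterByExpr (minimum count 10) were fitted with edgeR 4.0.16 in R 4.3.3 (TMM, robust quasi-likelihood, group as the term), with Benjamini-Hochberg adjustment over 14632 genes and FDR 0.05. Standard errors are the change divided by the root of F. CPM were computed from the deposited counts, and ± is the SD of 2 samples. Code was tested on simulated data. Members, the 13 related gene lists and 16 marker lists were chosen with earlier results of these data known. Named are all members, up to 4 genes of smallest p per list, and others said to be chosen after their values were seen. Some genes of the related lists are not reported here by name. Alternatives were DESeq2 1.42.0, limma 3.58.1 (voom), other scalings and filters, 6 separate libraries, the replicate block and leaving out each library. Transcript lengths come from GENCODE M21 (GRCm38), another build, with a length for all 33 members, and promoters from RefSeq. Equal replicate numbers did not mark shared origin (correlations of deviations -0.106, -0.148 and 0.095).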

Additional observations from a re-analysis of the deposited data

How the results depend on the processing

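Scaling moved the results most. On library totals without TMM factors, a setting chosen after seeing the data, 7734 genes and 15 members were called, 14 members higher and 1 lower (Thra). There the following turned positive: Nr1h2 0.40, Nr2f2 0.47, Nr3c2 0.46, Rara 0.27, Rarb 0.16, Rxra 0.18, Rxrb 0.54, Rxrg 0.21, Rora 0.43, Esrra 0.36, Esrrg 0.51, Vdr 0.45, Ncoa1 0.47, Ncoa2 0.46, Ncoa4 0.28, and outside the members Bag1 0.16, Dnaja1 0.0021, Hsp90aa1 0.17, Med16 0.016, Perm1 0.051, St13 0.21 and Tbl1x 0.25. The median of all genes moved from -0.01 to 0.54 by construction. In the DESeq2 Wald test 1634 genes and 3 members were called, 0 higher and 3 lower. Leaving out each library in turn gave 1149 to 2434 genes, 3 to 7 members, 0 to 1 higher and 3 to 6 lower, with the lowest counts without KO 2, and Igf2bp2 at -1.88 to -1.53. Uncalled members changed sign around 0: Rxrb was 0.0019, 0.0025 and 0.011 with mitochondrial genes, or these with muscle, salivary and red cell genes, left out, and with no filter, and Nr2f6 was -0.0069 with 6 separate libraries and -0.012 with the replicate block. Leaving out libraries, the range was -0.27 to 0.20 for Esrrg, -0.10 to 0.17 for Med1, -0.19 to 0.00071 for Ncoa2, -0.075 to 0.16 for Ncor1, -0.18 to 0.084 for Nr2f2, -0.066 to 0.086 for Nr2f6, -0.35 to 0.26 for Nr3c2, -0.069 to 0.047 for Rxrb, -0.11 to 0.23 for Thrb and -0.22 to 0.021 for Vdr. The causes were not tested. With 6 separate libraries 3452 genes and the same number of members (7) were called, and with the replicate block 2941 and 7. Depth limits Rorb, Esrrb and Pgr, which could not be tested, and Nr2f1 and Esr1, on 90 to 127 counts a group.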
